A study of Mus musculus with 6 samples.

Results

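Slc39a4, Slc39a8, Slc11a2, Slc31a2 and Slc46a1 are 5 solute carriers that move zinc, iron, copper, heme or folate across membranes. They were followed in uteri of mice with deleted Stat3 alleles. All probe sets annotated to them in the deposited table were taken, 1 for each gene, or 5 of 1382 probe sets and 5 of the 987 genes named by a single symbol. One group of uteri came from Stat3 d/d mice, in which the floxed alleles of Stat3 are deleted (3 arrays, replicates 1, 2 and 3). They were set against the uteri of Stat3 f/f mice, whose floxed alleles are intact (3 arrays, replicates 1, 2 and 4). All mice were female and at 3.5 days post coitum, shortly before implantation. Age, strain, the driver of the deletion and the uterine cells in which it acts were not stated in any label. Nor is it stated whether each array came from a separate animal, so each p-value reflects the spread between arrays alone, and that spread may be technical. In whole uterus, fewer cells of a type and less RNA per cell cannot be told apart.

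Metal ions and folate do not cross membranes unaided, and each needs its own carriers. The Slc39 (ZIP) proteins bring zinc into the cytosol from outside or from vesicles, and members differ in the other metals they accept. Ferrous iron enters through the proton-coupled carrier encoded by Slc11a2, copper through the Slc31 channels, and folate in acidic places through the Slc46a1 product. Stat3 encodes the transcription factor that acts downstream of interleukin-6 family cytokines. In liver it induces hepcidin, the hormone that limits iron export, and interleukin-6 raises the zinc carrier gene Slc39a14 there. Uterine secretions before implantation hold iron-binding proteins, among them lipocalin 2 and lactoferrin.

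The carriers went both ways. Slc39a4 and Slc31a2 were higher in Stat3 d/d, and Slc39a8, Slc11a2 and Slc46a1 were lower. Both zinc carriers were bright, at ranks 54 and 214 of 1382 by mean intensity, whereas the iron and the heme or folate carriers were read by dim probe sets whose changes lay near the smallest in the table. The table sets how these changes can be read. Every one of its 1382 probe sets has groups that do not overlap (100%) and group means at least 1.5-fold apart, so it had been selected on the comparison itself. All 1382 also passed an adjusted p of 0.05 in limma (100%), 931 of them higher (67.4%) and 451 lower (32.6%). The 2 higher and 3 lower carriers therefore add nothing by passing. Likewise the exact permutation test of each carrier gave a two-sided p of 0.1, the smallest that 3 against 3 arrays allow. The sizes, the spread and the order of the arrays are given as a description. The same selection may overstate the sizes and understate the spread, and with it the SEs and intervals.

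The deleted gene could check the labels only by its direction, since no probe set of the table has overlapping groups. The brighter Stat3 probe set read 121, 101 and 131 in Stat3 d/d, against 262, 356 and 243 in Stat3 f/f. The dimmer Stat3 probe set read 103, 104 and 114 in Stat3 d/d, against 237, 310 and 208 in Stat3 f/f. Both were thus lower in Stat3 d/d. The position of either probe set relative to the deletion was not looked at.

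The 250 bases before each annotated start were searched on both strands for the STAT motif TTCNNNGAA and for the metal response element, TGCACNC or TGCGCNC, the letters bound by the zinc-sensing factor MTF1. RefSeq windows (GRCm38.p6) were at hand for 3 of the 5 genes, 4 windows in all, with 2 starts for Slc39a8. None of the 4 held the STAT letters, which 7.02% of 32851 mouse windows of the same length hold. The metal response letters stood once before the second Slc39a8 start and once before the Slc31a2 start, against 21.4% of all windows, and were not found in the other 2 windows. The 2 stretches are shown because they belong to a carrier that fell and a carrier that rose. The match is in capitals, with its first base 19 bases before the start in Slc39a8, where it is read on the reverse strand, and 238 bases before the start in Slc31a2. A match of letters is no evidence of binding, and no match says only that these letters are not in the window.
Slc39a8, GRCm38.p6 chr3:135825627-135825655, plus strand: ttatctctaaaGGGTGCAgggcctgatct
Slc31a2, GRCm38.p6 chr4:62286180-62286208, plus strand: ccttttaatttTGCACTCaacatgtgtta

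**Figure D1:**
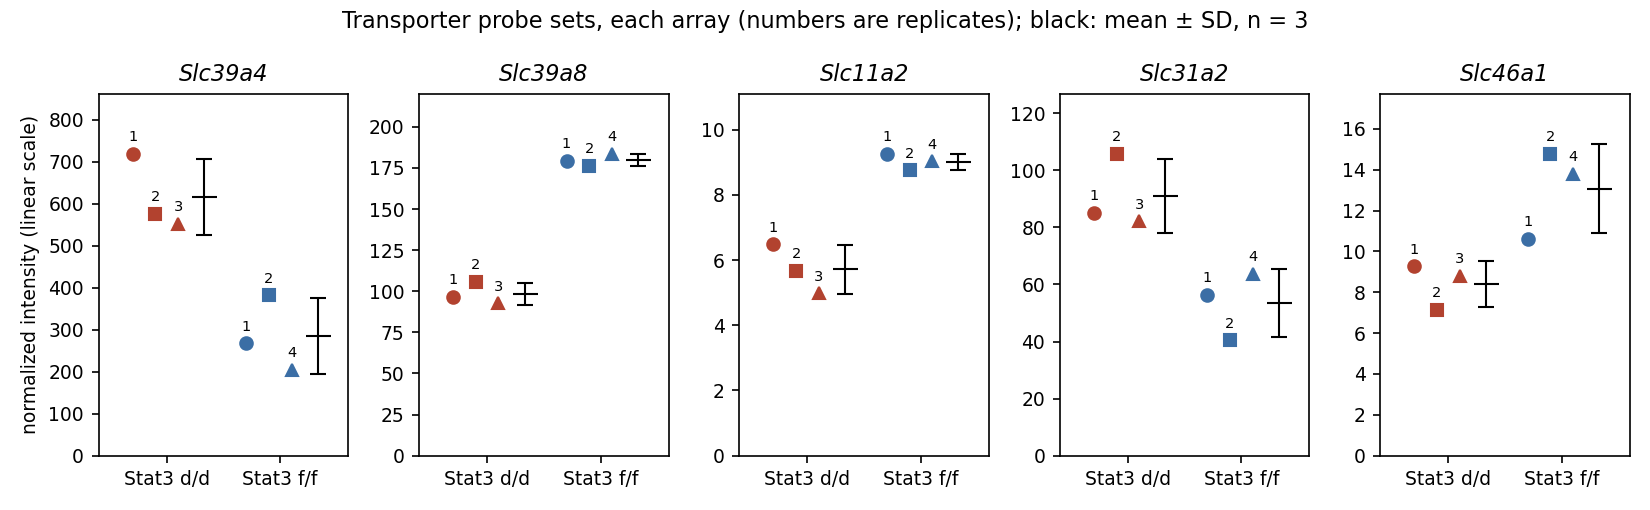
Normalized intensity (linear scale, from 0) of each carrier's probe set on every array, Stat3 d/d left of Stat3 f/f in each panel. Points are arrays numbered by replicate, and black marks are the mean ± SD (n = 3). Slc39a8 shows the tightest Stat3 f/f arrays (176 to 184), and Slc46a1 the narrowest gap between groups (9.28 against 10.6).

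Slc39a4 encodes ZIP4, the zinc importer of the gut surface, whose loss in people causes the zinc deficiency acrodermatitis enteropathica. Its probe set (1451139_at) read 719, 577 and 552 in Stat3 d/d, against 268, 383 and 204 in Stat3 f/f. The lowest Stat3 d/d array stood 1.44-fold above the highest Stat3 f/f array. The mean was 616 ± 89.9 in Stat3 d/d and 284.9 ± 90.4 in Stat3 f/f (SD, n = 3 arrays each), a ratio of 2.16. On the scale of log2(intensity + 1), used for all changes here, Slc39a4 rose by 1.15 (SE 0.23, 95% interval 0.63 to 1.67, adjusted p = 0.00149). This was rank 303 among the 931 rises of the table, whose median was 0.93. The Stat3 f/f arrays varied more than is usual here, with an SD of 0.45 (log2) against a median of 0.22 over all probe sets. With the arrays as deposited this was the largest change among the 5 carriers.

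Slc39a8 encodes ZIP8, a relative of ZIP4 that takes up manganese, iron and cadmium as well as zinc. Its probe set (1416832_at) read 96.8, 106 and 92.8 in Stat3 d/d, against 179, 176 and 184 in Stat3 f/f. Each Stat3 d/d array was thus well below each Stat3 f/f array, and the nearest pair lay 1.66-fold apart, where the median probe set of the table has 1.40. The mean was 98.5 ± 6.67 in Stat3 d/d and 179.7 ± 3.70 in Stat3 f/f, leaving 54.8% of the Stat3 f/f level. Slc39a8 fell by 0.86 on the log2 scale (SE 0.16, adjusted p = 0.000819), at rank 179 of 451 falls. The arrays within a group were close together, with an SD of 0.096 (log2) in Stat3 d/d and 0.030 in Stat3 f/f, against table medians of 0.17 and 0.22. It had the smallest adjusted p of the 5.

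The 2 ZIP genes moved against each other. Within arrays, the log2 difference between Slc39a4 and Slc39a8 was higher in Stat3 d/d by 2.01 (SE 0.31, without variance moderation). The direction of this difference follows from the separate groups of each gene. Its exact permutation p of 0.1, the smallest possible, therefore adds nothing. Both carriers belong to the list of 29 zinc transporters and metallothioneins, and the other 27 genes of that list were not analysed here, as no probe set of the table is named for them. The same holds for all 16 other genes of the Slc39, Slc11, Slc31 and Slc46 families, Slc39a14 among them. A gene outside this selected table cannot be called unchanged.

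Slc11a2 encodes DMT1, which carries ferrous iron into cells and out of endosomes, and whose mutation causes anaemia in mk mice. Its probe set (1441709_at) was dim, at rank 1247 of 1382 by mean intensity. It read 6.49, 5.67 and 4.98 in Stat3 d/d, against 9.26, 8.75 and 9.03 in Stat3 f/f. All Stat3 d/d arrays lay below all Stat3 f/f arrays, the nearest pair by 1.35-fold. The mean was 5.71 ± 0.76 in Stat3 d/d and 9.01 ± 0.26 in Stat3 f/f, or 63.4% of the Stat3 f/f level. Slc11a2 fell by 0.58 on the log2 scale (SE 0.16, adjusted p = 0.00631), at rank 409 of 451 falls. Without the added 1 the change was -0.67, since the offset understates changes of dim probe sets. The lowest intensity of the whole table is 2.47, so these readings sit near its floor. The sequence record behind this probe set is not among the RefSeq transcripts of Slc11a2 (nor is that of Slc39a4 for its own gene), and which of the transcripts of Slc11a2 it reads was not examined.

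Of the 35 genes listed for iron uptake, storage and export, 4 were in the table, Slc11a2 itself and 3 others. Of the 4, 1 was higher and 3 were lower, against 660 higher and 327 lower of all 987 genes. Their median change of -0.59 describes these 4 alone, since Slc11a2 was among the carriers chosen for this report. Lcn2, the siderophore-binding lipocalin 2, read 21.1, 12.2 and 12.1 in Stat3 d/d, against 181, 98.8 and 212 in Stat3 f/f (log2 change -3.33, SE 0.30, adjusted p = 1.08e-05). Cp, which encodes the ferroxidase and copper protein ceruloplasmin, was lower on both of its probe sets. The brighter read 81.2, 70.9 and 60.7 in Stat3 d/d, against 113, 86.3 and 126 in Stat3 f/f (-0.60, SE 0.20), and the dimmer changed by -0.79 (SE 0.21). Without Stat3 d/d replicate 3 the brighter missed the threshold, at -0.49 (limma, adjusted p = 0.0527). Hfe, whose product regulates hepcidin and is mutated in human hemochromatosis, was higher. It read 11.1, 8.37 and 11.9 in Stat3 d/d, against 6.95, 7.30 and 6.56 in Stat3 f/f (0.52, SE 0.18), a ratio of 1.51 that is almost the smallest the table holds. The change of Hfe was 0.05 after median centring (adjusted p = 0.790), and it missed the threshold without Stat3 d/d replicate 1 (0.47, adjusted p = 0.0512) or replicate 3 (0.43, adjusted p = 0.0636). The iron list was drawn up with the fall of Lcn2 already known.

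Slc31a2 encodes CTR2, a copper transporter of endosomes and lysosomes that is related to the main copper importer CTR1. Its probe set (1416654_at) read 85.1, 106 and 82.1 in Stat3 d/d, against 56.3, 40.5 and 63.8 in Stat3 f/f. The lowest Stat3 d/d array was 1.29-fold above the highest Stat3 f/f array, a narrower gap than at the median probe set. The mean was 91.0 ± 12.9 in Stat3 d/d and 53.6 ± 11.9 in Stat3 f/f, a ratio of 1.70. Slc31a2 rose by 0.77 on the log2 scale (SE 0.21, adjusted p = 0.00500), at rank 606 of 931 rises. Of the 22 genes listed for copper transport and copper enzymes, only Slc31a2 and Cp were in the table, 1 higher and 1 lower.

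Slc46a1 encodes the proton-coupled folate transporter, first described as a heme carrier, whose loss in people causes hereditary folate malabsorption. Its probe set (1426715_s_at) was also dim, at rank 1121 of 1382. It read 9.28, 7.14 and 8.81 in Stat3 d/d, against 10.6, 14.8 and 13.8 in Stat3 f/f. The groups did not overlap, but the highest Stat3 d/d array and the lowest Stat3 f/f array were only 1.15-fold apart. The mean was 8.41 ± 1.12 in Stat3 d/d and 13.1 ± 2.17 in Stat3 f/f, or 64.4% of the Stat3 f/f level. Slc46a1 fell by 0.58 on the log2 scale (SE 0.19, adjusted p = 0.0112), at rank 422 of 451 falls. The suffix of the probe set marks probes that match more than 1 transcript, so part of its signal can come from elsewhere. Counted from the smallest fold between group means in the table, 1.5, Slc46a1 stands at rank 144 and Slc11a2 at rank 203 of 1382, at 0.643 and 0.634 of the Stat3 f/f mean.

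Of the 27 genes listed for heme, 3 were in the table, and the other 2 were higher. Abcb10, a mitochondrial transporter needed for heme synthesis, read 50.2, 56.9 and 54.3 in Stat3 d/d, against 30.2, 33.7 and 39.4 in Stat3 f/f (0.64, SE 0.17). Ppox, the protoporphyrinogen oxidase of heme synthesis, averaged 64.7 ± 4.52 in Stat3 d/d and 40.8 ± 8.73 in Stat3 f/f (0.67, SE 0.19). Neither passed after median centring, at 0.17 (adjusted p = 0.405) for Abcb10 and 0.21 (adjusted p = 0.379) for Ppox. Of the 27 genes for folate, Slc46a1 and Gldc were in the table. Gldc encodes glycine decarboxylase, which passes a carbon from glycine to tetrahydrofolate. It read 25.7, 18.5 and 26.8 in Stat3 d/d, against 4.97, 5.23 and 4.18 in Stat3 f/f (2.08, SE 0.19, adjusted p = 1.11e-05). The Stat3 f/f readings lie near the lowest of the table, so the size of this rise is uncertain. Over all these lists, 11 of 139 genes were in the table, 6 higher and 5 lower, with a median of 0.52.

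**Figure D2:**
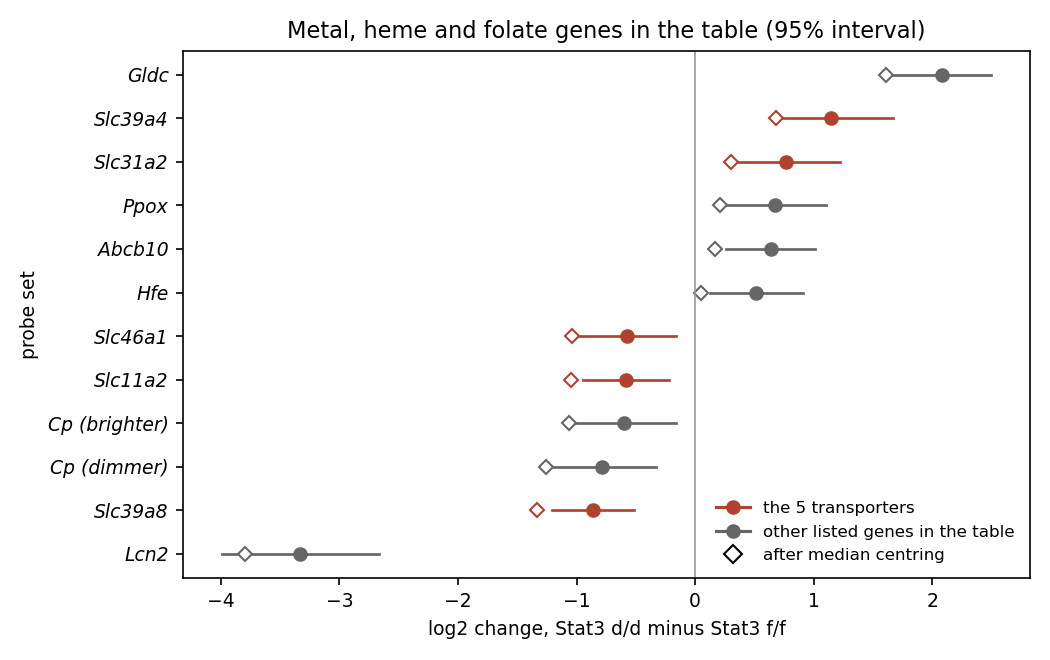
Log2 change (x axis, Stat3 d/d minus Stat3 f/f) of every probe set in the table from the zinc, iron, heme, copper and folate lists, with its 95% interval. Red circles are the 5 carriers, grey circles the other listed genes, and open diamonds the change after median centring. Centring shifts each point down by the same amount, so that Hfe comes to lie at 0.05 while Gldc stays at 1.61.

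The carriers that rose and those that fell depend unequally on how the arrays are scaled. Over the table the median change was 0.70, and it became 0.25 after quantile normalization and 0.24 after median centring of each array. A table chosen for differences cannot show which scaling is the right one. Under both, 3 carriers were lower past the threshold, as were 451 probe sets of the table (32.6%), and 1 was higher. The table then had 436 (31.5%) and 422 (30.5%) probe sets higher. Slc39a4 kept its call at 0.60 (adjusted p = 0.0449) and 0.68 (adjusted p = 0.0292). Slc31a2 lost it at 0.36 (adjusted p = 0.122) and 0.30 (adjusted p = 0.203). The 3 lower carriers became deeper, with Slc39a8 at -1.33 under both, Slc11a2 at -1.04 and -1.05, and Slc46a1 at -1.05 and -1.04.

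When p-values were adjusted as if 45000 probe sets had been tested, about the size of a whole array, only the 2 zinc carriers passed. Slc39a8 then had an adjusted p of 0.0267 and Slc39a4 of 0.0486. That is 1 lower carrier where 9.48% of the table passed as lower, and 1 higher carrier where 28% passed as higher. Slc31a2 (0.163), Slc11a2 (0.205) and Slc46a1 (0.365) did not pass. Leaving out any single array changed no direction and ended no call among the 5, although Slc46a1 stood at an adjusted p of 0.04999 without Stat3 d/d replicate 2.

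**Figure D3:**
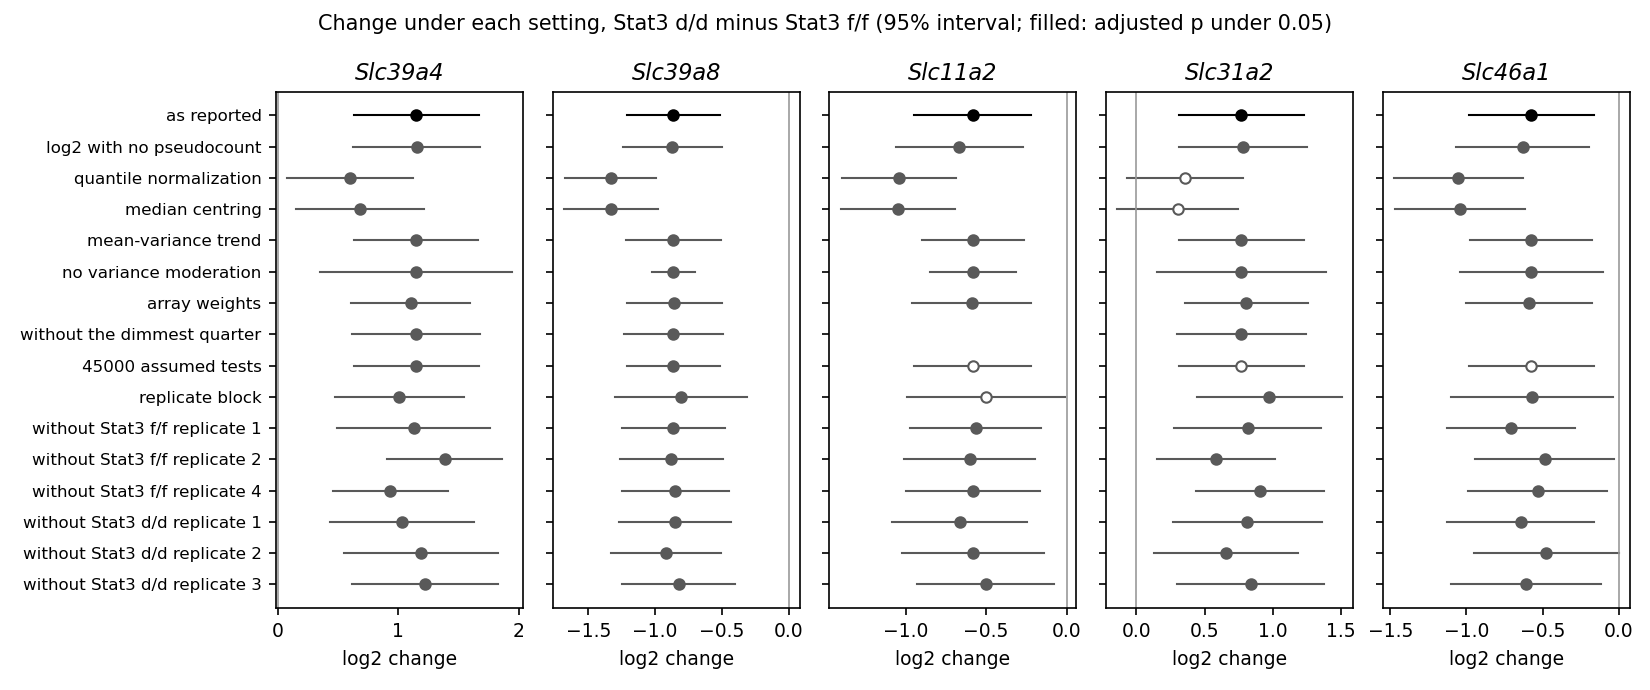
Log2 change of each carrier (x axis, Stat3 d/d minus Stat3 f/f) as reported and under each alternative (rows), with its 95% interval. Filled circles have an adjusted p under 0.05 and open circles do not. Slc39a4 and Slc39a8 are filled in every row, and Slc31a2 is open under both scalings and with 45000 assumed tests.

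Other solute carriers of the table mostly rose. Of 19 other genes whose symbols begin with Slc, 16 were higher and 3 lower by their brightest probe set, with a median of 0.79. Most genes of the table rose too, with 660 of 987 higher and 327 lower, and a median of 0.70. Among the 5 carriers described here, 2 were higher and 3 lower, with a median of -0.58. By that probe set, the largest rises were in the amino acid transporter gene Slc6a14 (2.48, SE 0.37, but 0.92, SE 0.23, on its other probe set), in Slc51a, a subunit of an organic solute and bile acid transporter (1.34, SE 0.22), and in the glutamine transporter gene Slc1a5 (1.31, SE 0.19). The falls were in Slc35g1 (-1.12, SE 0.27), the mitochondrial branched-chain amino acid carrier gene Slc25a44 (-0.70, SE 0.18) and the anion exchanger gene Slc4a3 (-0.62, SE 0.21). Slc4a3 missed the threshold without Stat3 f/f replicate 4, at -0.41 (limma, adjusted p = 0.05095). These counts describe a selected table, and the difference between the 2 sets of carriers was not tested.

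**Figure D4:**
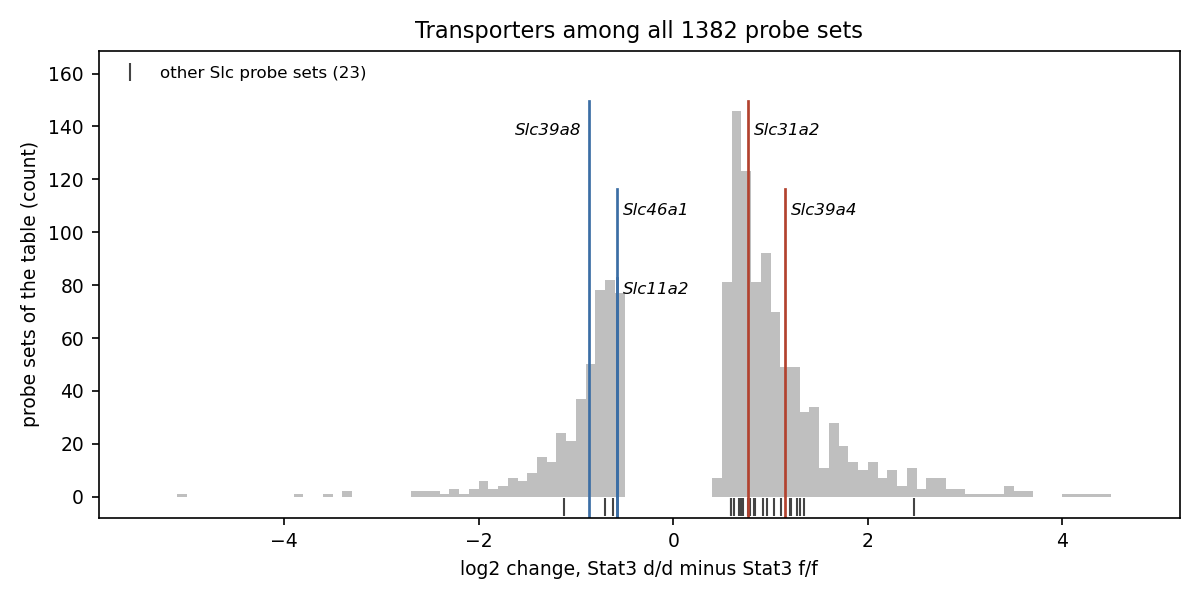
Histogram of the log2 change (x axis, Stat3 d/d minus Stat3 f/f) of all 1382 probe sets (y axis, count). Vertical lines mark the 5 carriers, red where higher and blue where lower in Stat3 d/d, and ticks under the axis mark the 23 other Slc probe sets. The empty centre comes from the selection of the table. Slc46a1 (-0.58) and Slc11a2 (-0.58) lie beside it, and Slc39a8 and Slc39a4 lie farther out.

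The genes most like each carrier over the 6 arrays were found by Pearson's r of log2 values. Every probe set of the table separates the groups, so high values are built in, and r is given as a description only. Slc39a8 was closest to Gdpd3, a lysophospholipase gene (r = 0.997), which fell by 5.09 on the log2 scale, and then to Cuedc1 and Bloc1s6 (0.994 each). Slc39a4 was closest to Slc51a and Ikzf1, a lymphoid transcription factor gene (0.991 each), and then Pxk (0.989). Slc31a2 was closest to Slc27a2, a fatty acid transport gene (0.995), Fads2b (0.991) and Sike1 (0.987). Like Slc31a2, these 3 were highest in Stat3 d/d replicate 2 and lowest in Stat3 f/f replicate 2. Slc11a2 was closest to Fam32a (0.989), Fam160b1 and Camta1 (0.982 each). Slc46a1 was closest to Igfbp5, which encodes a binding protein of insulin-like growth factors (0.984), Cadm4 (0.977) and Mapk6 (0.973). Of the other 986 genes, 177 had an r over 0.9 with Slc39a8 and 154 with Slc39a4, against 138 with Slc31a2, 102 with Slc11a2 and 52 with Slc46a1. Genes that move the other way cannot reach such an r. As the table holds 660 higher and 327 lower genes, counts for risen and fallen carriers are not on equal terms.

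Markers of several cell types also differed between the groups, as far as they were in the table. Of 12 markers of uterine epithelium 2 were present, Cldn3 and Cldn4, and both were higher. Their summed intensity was 1209, 1028 and 1078 in Stat3 d/d, against 691, 815 and 516 in Stat3 f/f. Most of it was Cldn3, at 938 to 1099 in Stat3 d/d and 453 to 758 in Stat3 f/f. Neither passed after median centring, at 0.28 (adjusted p = 0.267) for Cldn3 and 0.21 (adjusted p = 0.255) for Cldn4. Slc39a4 had the same order of arrays within Stat3 f/f, but within Stat3 d/d replicates 2 and 3 stood in the other order. Of 15 markers of macrophages and dendritic cells 8 were present, all higher, with sums of 4650, 2683 and 2002 in Stat3 d/d, against 1215, 1411 and 1035 in Stat3 f/f. Slc39a4 had the same order of arrays as this sum within both groups. Of 15 markers of T and NK cells 9 were present, all higher, with sums of 959, 793 and 602 in Stat3 d/d, against 290.5, 254.7 and 167 in Stat3 f/f. This order was that of Slc39a4 within Stat3 d/d but not within Stat3 f/f. Slc31a2, the other carrier that rose, did not have the array order of the epithelial or either leukocyte sum within either group. Slc39a8, Slc11a2 and Slc46a1 were lower in Stat3 d/d, where both leukocyte sums were higher. Rises are common in this selected table, with 660 of its 987 genes higher and 327 lower. The leukocyte markers were not followed after median centring. Of 9 gland markers 3 were present, with Calb1 and Ttr higher and Sox9 lower. Their sum was 2286 to 2516 in Stat3 d/d and 688 to 793 in Stat3 f/f. Most of that sum was Calb1, at 2222 to 2434 in Stat3 d/d and 658 to 758 in Stat3 f/f. Of 10 stromal markers only Dcn was present, at 9.59 to 14.4 in Stat3 d/d and 22.2 to 34.9 in Stat3 f/f. Of 8 markers of ovary and oviduct only Ovgp1 was present, at 239.7 to 494 in Stat3 d/d and 7.42 to 31.3 in Stat3 f/f. No marker of smooth muscle, blood vessels, red blood cells or embryo was in the table, so the tissue label could be checked only through the markers named here. No marker that was present read 0 on any array, but no value of the table lies below 2.47, so none could. The part of these cell types in the changes of the carriers was not tested.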

How the data were processed

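Uterine RNA from 3 Stat3 d/d and 3 Stat3 f/f samples was hybridised to Affymetrix arrays as biotin-labelled cRNA, per the labels' protocols. The deposited table gives a normalized intensity per probe set and array, unlogged, from 2.47 to 4352. The submitters' processing notes name RMA without a version. RMA usually yields log2 values, and how the linear values were made is not given in the sources used here. Genome build, and the rule by which the authors selected the 1382 deposited probe sets, were not found in the sources used here.

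Groups come from the source names and replicate numbers from the titles. Probe sets were named by the platform annotation (1191 with 1 symbol, 57 with several, 134 unnamed here), and RefSeq (GRCm38.p6) matched 1186 of the 1191 and all 5 carriers without changing a symbol. A gene with several probe sets was represented by the brightest. The difference Stat3 d/d minus Stat3 f/f was fitted on log2(intensity + 1) by limma 3.58.1 in R 4.3.3 (lmFit, eBayes, no covariate) over the whole table, with Benjamini-Hochberg adjustment and a threshold of 0.05. Array number limits the precision. Genes named are the carriers, Stat3, all listed metal, heme and folate genes in the table, the 3 largest rises and falls of other Slc genes, the 3 genes most like each carrier, and the markers. Carriers and lists were chosen with earlier results of these data known. The fit was tested on simulated data with no selection on the comparison, so that test does not cover the selection of this table. Alternatives were 2 scalings, no offset, array weights, variance models, leaving out dim probe sets, 45000 assumed tests, the replicate number as a block and leaving out each array. Motifs were searched with Python 3.11.15, and figures drawn with matplotlib 3.10.9.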

Additional observations from a re-analysis of the deposited data

How the results depend on the processing

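All 5 carriers kept their direction under every alternative that gave a value, and Slc39a4 and Slc39a8 also kept their calls. Only the 2 scalings could have changed a direction, since the groups of no probe set overlap. Of the table's 1382 calls, 887 were left after quantile normalization, 873 after median centring and 518 with 45000 assumed tests, which only raises the number of tests. Carriers called higher were 1 in place of 2 under each of these 3 settings, because Slc31a2 lost its call (0.36, 0.30 and 0.77). Carriers called lower were 1 in place of 3 with 45000 assumed tests, where Slc11a2 (-0.58) and Slc46a1 (-0.58) lost theirs, and 1 without the dimmest 25% of probe sets, which leaves out both. The replicate numbers pair samples only by name: just 1 and 2 occur in both groups, and the deviations of same-numbered arrays from their group means correlated at 0.09 and 0.03. With the replicate block 1284 probe sets were called, and Slc11a2 was at -0.50 (adjusted p = 0.0501). Leaving out single arrays gave 0.93 to 1.38 for Slc39a4, -0.92 to -0.82 for Slc39a8, -0.66 to -0.50 for Slc11a2, 0.58 to 0.91 for Slc31a2 and -0.71 to -0.47 for Slc46a1. Without the added 1, changes were 1.15, -0.87, -0.67, 0.78 and -0.63 in the same order. The other 37 named probe sets, with the named epithelial, gland, stromal and oviduct markers but not the leukocyte markers, kept their direction under every alternative that gave a value. Again, only the scalings could have changed it. Of the 37, 11 lost the call under each scaling, 22 with 45000 assumed tests, 4 with the replicate block (Cp, Hfe, Slc4a3 and Cadm4) and 1 without variance moderation (Slc4a3). Leaving out a single array ended the calls of 3: the brighter Cp probe set, Hfe and Slc4a3. Signal near the lowest values of the table limits Slc11a2 and Slc46a1.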
